A study of Rattus norvegicus with 2 samples.

Results

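Chromosome 5 of the rat carries the longest continuous stretch of 8-oxoguanine (8-oxoG) signal above the array median in the kidney profile averaged over both rats. The chromosome was chosen by that measured profile, so its levels of log2(IP/input) are given as a description with no test. Its members are the probes placed on chromosome 5 of the rat assembly rn4, without those on its randomly placed sequence. There were 14108 such probes, of which 4 had only spots with an outlier flag on either array, and 14104 were kept. They make up 6.10% of the 231247 probes kept on chromosomes 1 to 20 and X, and all of the 235872 kept probes contributed to the centring of the arrays. The first probe starts at position 78326 and the last ends at position 173082160.

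8-oxoG was measured in kidneys of untreated male Wistar rats aged 5 weeks (spelled Wister in the labels), with 2 biological replicates and 1 array for each. Both arrays form a single group, named normal kidney, and there is no control group, treated group or array with swapped dyes. DNA was precipitated with the monoclonal 8-oxoG antibody N45.1, labelled with Cy5 and hybridised together with Cy3-labelled input DNA that had not been precipitated. The level of a probe is log2 of the IP intensity over the input intensity, relative to the median of the array, so that 0 is the array median and not the absence of 8-oxoG. A difference between the dyes cannot be told apart from a difference between IP and input. Whole kidney was used, so the profile is an average over its cell types. The number of arrays limits the precision of every level, and an exact two-sided sign-flip test over 2 arrays cannot go below p = 0.5.

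8-oxoG arises when reactive oxygen species attack guanine in DNA, or when an oxidised nucleotide is built in during synthesis. Because it can pair with adenine as well as with cytosine, it is a source of transversions. The lesion is removed mainly by base excision repair, in which OGG1 cuts out the oxidised base and MUTYH removes an adenine that was placed opposite to it. In RefSeq's annotation of a later rat assembly, GRCr8, chromosome 5 carries the gene Mutyh itself, the nucleotide excision repair genes Xpa and Rad23b, and Prdx1, which encodes a peroxide-reducing enzyme. It also carries Ptprd and Astn2, which are very long genes expressed in neurons. The array files name no genes and no annotation of rn4 was used here, so no probe was assigned to any of these genes.

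Probes were somewhat sparser on chromosome 5 than elsewhere. The median distance between the starts of neighbouring probes was 8845 bases, compared with 7936 bases on the other chromosomes. The mean distance was 12267 bases, and 30 intervals exceeded 100 kb. The widest of them ran from 11687862 to 12197176, over 509314 bases. In both rats, IP and input signals were well above background for 79.0% of the probes, compared with 78.1% on the other chromosomes. No probe of the chromosome was saturated.

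As a whole, chromosome 5 lay in the middle of the genome. Its mean level was -0.0076 on replicate 1 and -0.0949 on replicate 2, giving -0.05 ± 0.06 (SD, n = 2), so the spread between the rats exceeded the distance from 0. The mean over the other chromosomes was -0.0146 on replicate 1 and -0.0954 on replicate 2. The difference between chromosome 5 and the others was therefore 0.0037 ± 0.0046 (SD, n = 2), within the spread between the rats, and it changed sign under 3 of the alternatives in the closing section. Ordered from the highest mean to the lowest, it stood at place 12 of the 21 chromosomes. Single probes spread about as widely as elsewhere, with an SD of 0.96 on replicate 1 and 1.24 on replicate 2, compared with 0.96 and 1.25 on the other chromosomes.

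The unremarkable mean is the sum of high and low stretches, which the plot of the smoothed profile along the chromosome shows for each rat. The profile was smoothed by giving each probe the mean of its neighbours up to 500 kb away on either side. Runs of probes above 0 (rich regions) then covered 44.4% of the chromosome and runs below 0 (depleted regions) covered 53.9%. The rich regions held only 32.9% of the probes, because probes are sparser there. By this share of length, chromosome 5 stood at place 7 of 21. Replicate 1 alone gave 51.0% and replicate 2 alone gave 37.0%. Normexp background correction of both arrays, applied without dye normalization, gave 25.04%.

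Among regions of at least 1 Mb, 20 were rich and 23 were depleted. Their median lengths were 2.02 Mb and 2.88 Mb, respectively. With smoothing over 1 Mb on either side in place of 500 kb, 13 were rich and 11 were depleted, so the order of the counts turned. Of the rich regions, 18 had a mean level above 0 on both arrays, and all 23 depleted regions were below 0 on both. The regions were drawn on the mean of these same arrays, which favours a shared sign. These counts therefore show no replication, and their shares over all chromosomes are not given. The levels ranged from 0.05 to 0.42 in rich regions and from -0.29 to -0.10 in depleted regions. Replicate 1 was higher than replicate 2 in 18 of the 20 rich regions, by a mean of 0.18 over the 20. In the depleted regions it was higher in 16 of 23, by a mean of 0.08 over the 23. Replicate 1 was also the higher in 125 of the 174 fragments of 1 Mb of the chromosome. Over the other chromosomes its mean was higher as well, at -0.0146 compared with -0.0954 on replicate 2. The direction of the difference, which remained after the centring of both arrays, is thus not particular to the rich regions.

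The longest rich region runs from 82374449 to 100249999, over 17.9 Mb, and holds 1097 probes. Its mean level was 0.47 on replicate 1 and 0.26 on replicate 2, or 0.36 ± 0.15 (SD, n = 2). The rest of the chromosome had a mean of -0.05 on replicate 1 and -0.12 on replicate 2. The region thus exceeded the rest of its chromosome by 0.52 on replicate 1 and by 0.38 on replicate 2, a difference of 0.45 ± 0.10 (SD, n = 2). Since this region is the reason for which the chromosome was chosen, these values describe it and test nothing. Normexp background correction was applied to median signals without dye normalization. The SD over the 1 Mb fragments of the chromosome was then 0.06 in place of 0.28. With it the mean of the region was 0.04 on replicate 1 and -0.0035 on replicate 2. Under that setting the region was above the array median on replicate 1 only, and the longest rich stretch that overlaps it was 4.88 Mb long. All of chromosome 5 then had a mean of -0.09 on replicate 1 and -0.03 on replicate 2, so the region was still above its chromosome in both rats.

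Its ends were set by small differences around 0. At the left end the smoothed level of the mean profile was 0.02 at the first probe inside and -0.01 at the last probe outside. At the right end it was 0.01 at the last probe inside and -0.0086 at the first probe outside. Around both ends the rats were on opposite sides, with replicate 1 above 0 and replicate 2 below 0. A separate rich region from 80948622 to 82337174 ends just before it and had levels of 0.49 on replicate 1 and 0.12 on replicate 2. The 2 Mb before the region had a mean of 0.20 on replicate 1 and -0.04 on replicate 2, whereas the 2 Mb after it were below 0 on both, at -0.09 and -0.25.

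Drawn on each rat alone, the region had different lengths. On replicate 1 the stretch around its centre ran from 80798618 to 100792989, over 19.99 Mb, and 2 rich regions elsewhere in the genome were longer, the longest of which lay on chromosome 11 with 24.1 Mb. On replicate 2 it ran from 83100424 to 92147588, over 9.05 Mb, and 4 were longer, the longest of which lay on chromosome 13 with 17.0 Mb. That chromosome 5 has the longest rich region is therefore a property of the mean of the rats and holds in neither of them alone. The length depended on the smoothing too. In the mean profile the longest rich stretch that overlaps the region was 12.6 Mb with smoothing over 250 kb on either side and 19.2 Mb with 1 Mb. Lengths on other chromosomes under these windows are not given. On replicate 2 the smoothed level was above 0 at 87.0% of the probes of the region, in 6 pieces that covered 92.1% of its length, while on replicate 1 it was above 0 at all of them.

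Boundaries drawn on one rat did not use the other, although the chromosome itself was chosen with both. The stretch drawn on replicate 1 had a level of 0.24 on replicate 2, compared with 0.46 on replicate 1 itself. The stretch drawn on replicate 2 had a level of 0.51 on replicate 1, compared with 0.32 on replicate 2. Both readings on the other rat were above 0. Over the whole chromosome, 13 of the 16 rich regions of 1 Mb or longer drawn on replicate 1 were above 0 on replicate 2, against 77.3% of such regions over all chromosomes. Of the 18 drawn on replicate 2, 17 were above 0 on replicate 1, against 99%. For depleted regions, 19 of 19 drawn on replicate 1 and 23 of 26 drawn on replicate 2 were below 0 on the other rat, against 97% and 81.2%. These shares are near the background, and nothing particular to chromosome 5 is read from them.

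The fragments of the region, which were above 0 in the mean profile that drew it, are described here by their spread. Of its 17 complete 1 Mb fragments, which hold from 44 to 101 probes each, all were above 0 on both arrays, and 10 were above 0.25 on both. Fragment levels ranged from 0.24 to 0.73 on replicate 1 and from 0.10 to 0.50 on replicate 2, and replicate 1 was the higher in 16 of the 17. When the region was cut into 3 parts of equal length, the mean levels were 0.41, 0.56 and 0.45 on replicate 1 and 0.27, 0.27 and 0.22 on replicate 2, from left to right. The middle part was the highest on replicate 1, whereas on replicate 2 it did not stand out from the first part. All 3 parts were above 0 in both rats.

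**Figure D1:**
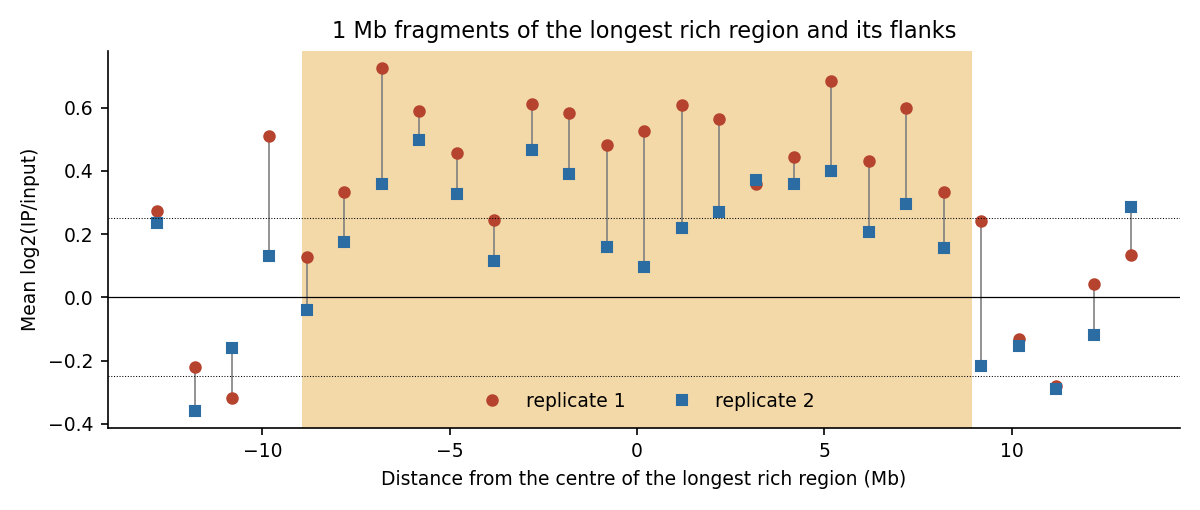
Mean log2(IP/input) of 1 Mb fragments (vertical axis) against the distance in Mb from the centre of the longest rich region (horizontal axis), for replicate 1 (red circles) and replicate 2 (blue squares), each pair joined by a grey line. The orange band is the region, dotted lines mark 0.25 and -0.25, and the 17 complete fragments inside the band are above 0 in both rats.

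Inside the region the highest fragment with at least 50 probes was the interval from 85 to 86 Mb, where 100 probes had a mean of 0.59 on replicate 1 and 0.50 on replicate 2. The neighbouring interval from 84 to 85 Mb, with 46 probes, reached 0.73 on replicate 1 and 0.36 on replicate 2. By the mean of the rats, the lowest complete fragment lay from 87 to 88 Mb, with 0.24 on replicate 1 and 0.11 on replicate 2. The rats differed most from 91 to 92 Mb, where replicate 1 gave 0.52 and replicate 2 gave 0.10. They were closest from 94 to 95 Mb, with 0.36 on replicate 1 and 0.37 on replicate 2. The last interval, from 100 to 101 Mb, lies mostly outside the region and had 0.24 on replicate 1 and -0.22 on replicate 2.

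At the level of single probes the region is a moderate shift of a wide distribution. On replicate 1 the quartiles of its probes were -0.11 and 1.099, and on replicate 2 they were -0.43 and 1.01. Probes above 0 made up 69.7% on replicate 1 and 60.5% on replicate 2, and 48.95% were above 0 on both, compared with 30.0% in the rest of the chromosome. Levels above 1 on both arrays were found for 152 probes of the region, or 13.9%. On all of chromosome 5 such probes numbered 845, or 5.99%, against 5.85% over all chromosomes. Levels below -1 on both arrays were found for 4.57% of the probes of the chromosome, against 4.67% over all chromosomes, but for only 1.28% of those in the region. The region was drawn by these same levels, so its shares describe it and test nothing. In the next longest rich regions, on chromosomes 11 and 13, 12.4% and 13.9% of probes were above 1 on both arrays. Below -1 on both were 1.67% and 1.39%.

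**Figure D2:**
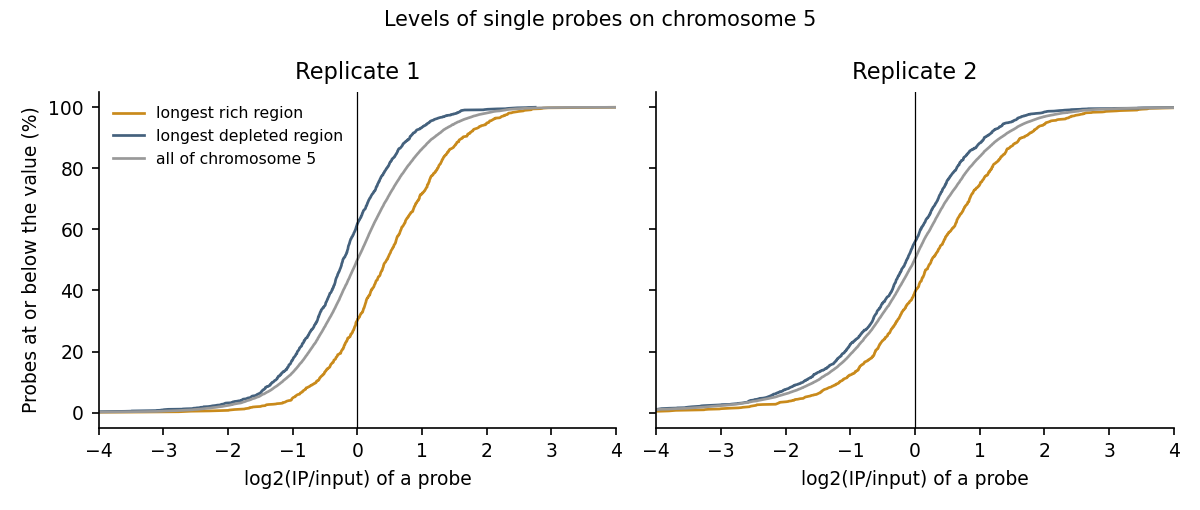
Share of probes in percent (vertical axis) at or below each log2(IP/input) value (horizontal axis) on replicate 1 (left) and replicate 2 (right), for the longest rich region (orange), the longest depleted region (blue) and all of chromosome 5 (grey). The orange curve lies to the right of the blue curve in both rats, with medians of 0.45 and -0.23 on replicate 1 and of 0.26 and -0.13 on replicate 2.

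The next longest rich regions of the genome resembled it closely in the mean profile. On chromosome 11 the region from 17500 to 17556745 had levels of 0.40 on replicate 1 and 0.23 on replicate 2. On chromosome 13 the region from 13426503 to 30676128 had 0.49 on replicate 1 and 0.25 on replicate 2. The lengths of the 3 regions were 17.9, 17.5 and 17.2 Mb on chromosomes 5, 11 and 13, and shares of probes above 0 on both arrays were 48.95%, 47.9% and 50.1%. The difference of mean level between chromosomes 5 and 13 is smaller than the spread between the rats. The region on chromosome 11 was more densely covered, with 81.8 probes per Mb, compared with 61.4 on chromosome 5 and 62.6 on chromosome 13.

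The other 5 rich regions of 5 Mb or longer on chromosome 5 lie from 6762366 to 12985916, from 30733654 to 35792978, from 39871248 to 47949987, from 52031666 to 57051117 and from 109302166 to 115383644. Their mean levels on replicate 1 were 0.33, 0.44, 0.48, 0.47 and 0.41, in that order. On replicate 2 they were 0.12, 0.27, 0.26, 0.37 and 0.10. All 5 were above 0 on both arrays and lower on replicate 2. The region from 52031666 to 57051117 had the highest level of the 20 rich regions, at 0.42 ± 0.07 (SD, n = 2), and it exceeded the longest region, at 0.36 ± 0.15, by less than the spread of the latter. The first and the last of them differed most between the rats in proportion to their level, with replicate 2 close to 0. The 6 regions together covered 27.9% of the chromosome.

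The 4 depleted regions of 5 Mb or longer lie from 57063385 to 65592481, from 134173515 to 150098491, from 150194370 to 155638420 and from 164580354 to 173082160. Their levels were -0.25, -0.25, -0.29 and -0.31 on replicate 1 and -0.29, -0.25, -0.18 and -0.27 on replicate 2. The longest, of 15.9 Mb and 1681 probes, had a mean of -0.25 ± 0.0034 (SD, n = 2). Its probes were above 0 in 38.2% of cases on replicate 1 and in 44.0% on replicate 2. On replicate 2 their median was -0.13, nearer to 0 than the mean, so probes far below 0 pull the mean down there. This is not particular to the region. On replicate 2 all of chromosome 5 had a median of -0.0071 and a mean of -0.0949. The other chromosomes had a median of -0.00071 and a mean of -0.0954 on that array.

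The last part of the chromosome was depleted almost throughout, and its start was chosen after the values were seen. From 134173515, the start of the longest depleted region, to the last probe, over 38.9 Mb, depleted regions took up 96.5% of the length and a single rich region of 1 Mb or longer was found, from 163533531 to 164565902. The 4438 probes of this part had a mean of -0.27 on replicate 1 and -0.23 on replicate 2. The 9666 probes before it had a mean of 0.11 on replicate 1 and -0.03 on replicate 2. Of the 40 fragments of 1 Mb from 134 Mb on, 36 were below 0 on both arrays and 1 was above 0 on both. The ends of the chromosome differed in the same way. The first 3 Mb had 0.07 on replicate 1 and -0.08 on replicate 2, so the rats were on opposite sides, while the last 3 Mb had -0.27 and -0.30. In intervals of 20 Mb, the level was highest from 80 to 100 Mb, with 0.41 on replicate 1 and 0.23 on replicate 2. It was lowest in the last 2 intervals, the second of which is cut short by the end of the chromosome, with -0.28 and -0.27 on replicate 1 and -0.22 and -0.23 on replicate 2.

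Division of the chromosome gave 174 fragments of 1 Mb with a median of 74.5 probes, of which 1 held fewer than 20. Above 0.25 on both arrays were 27 fragments, or 15.5%, against 13% over all chromosomes. Below -0.25 on both arrays were 17, or 9.77%, against 10.4% over all chromosomes. Both shares are near the background. All 27 rich fragments and 4 of the 17 depleted ones lie among the 134 fragments before 134 Mb, and the other 13 depleted ones lie among the 40 fragments after it. This limit was set by the same levels, so the counts on its sides describe the chromosome and test nothing. These counts varied with the processing. After normexp no fragment passed in either direction. Over all chromosomes 2 rich and 0 depleted fragments passed after it, in place of 355 and 285. With the median in place of the mean over probes, only 1 depleted fragment of chromosome 5 was left. Rich fragments numbered 59 on replicate 1 alone and 28 on replicate 2 alone. On a single rat the rule asks only that rat to be above 0.25, so these counts could not be below 27. The single-rat counts over all chromosomes are not given.

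Considering fragments of 50 probes or more whose sign was shared by the rats, the highest were found from 32 to 33 Mb, from 85 to 86 Mb and from 96 to 97 Mb. The first had 0.65 on replicate 1 and 0.54 on replicate 2, the second 0.59 and 0.50, and the last 0.68 and 0.40. Their means of 0.60 ± 0.08, 0.54 ± 0.07 and 0.54 ± 0.20 (SD, n = 2) do not differ beyond the spread between the rats. The lowest fragments lay from 144 to 145 Mb, with -0.45 on replicate 1 and -0.43 on replicate 2, from 63 to 64 Mb, with -0.28 and -0.53, and from 153 to 154 Mb, with -0.44 and -0.34. All 6 kept their sign in each alternative processing that was run, although normexp background correction brought the highest to between 0.04 and 0.05 and the lowest to between -0.12 and -0.09. Since a shared sign was part of their choice, leaving out a rat could not change it.

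Levels could change within a short distance. Among 120 pairs of neighbouring fragments with at least 50 probes each, 82 changed in the same direction in both rats, and the median size of these steps was 0.18. The share over all chromosomes is not given, so nothing particular to chromosome 5 is read from this count. The largest of the steps was a fall at 22 Mb, from 0.35 to -0.09 on replicate 1 and from 0.24 to -0.36 on replicate 2. A fall at 165 Mb went from 0.29 to -0.41 on replicate 1 and from 0.06 to -0.27 on replicate 2. At 57 Mb, where the rich region with the highest level ends, the level fell from 0.23 to -0.09 on replicate 1 and from 0.23 to -0.39 on replicate 2. The sizes of these steps, -0.51 ± 0.11, -0.51 ± 0.26 and -0.47 ± 0.22 (SD, n = 2), cannot be ranked against each other.

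The rats were alike along the chromosome at the scale of these regions. Pearson's r between their 1 Mb fragments was 0.83 and Spearman's rho was 0.80, over 174 fragments that share both arrays and are not independent of their neighbours. On the other chromosomes together r was 0.79, and in the order of single chromosomes chromosome 5 stood at place 9 of 21. For single probes r was 0.34, the same as on the other chromosomes, and it rose to 0.45, 0.59, 0.76 and 0.89 for fragments of 50 kb, 200 kb, 500 kb and 2 Mb, of which there were 3353, 860, 347 and 87. A fragment on one rat was also related to more distant fragments on the other. The correlation was 0.62 at 1 Mb, 0.42 at 3 Mb, 0.28 at 5 and at 10 Mb, and 0.11 at 20 Mb. Of the 174 fragments, 64 were above 0 and 80 below 0 in both rats. In 27 of the remaining 30, replicate 1 was above and replicate 2 below 0. Without the shares over all chromosomes, which are not given, these counts of signs say nothing particular about chromosome 5.

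**Figure D3:**
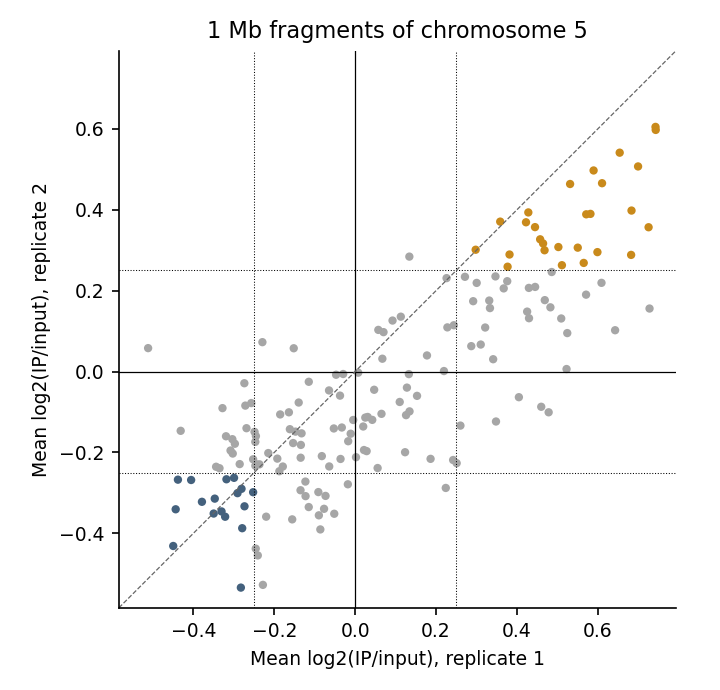
Mean log2(IP/input) of the 174 fragments of 1 Mb of chromosome 5 on replicate 1 (horizontal axis) and replicate 2 (vertical axis), with equal scales, a dashed line of equality and dotted lines at 0.25 and -0.25. The 27 fragments above 0.25 in both rats are orange, the 17 below -0.25 in both are dark blue, and 125 of the 174 lie on the side where replicate 1 is higher.

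Probe density moved with the level. Over the 174 fragments the number of probes and the mean level had a Pearson's r of -0.64 and a Spearman's rho of -0.69, across positions of 1 chromosome. The 33 fragments with fewer than 50 probes had a mean level of 0.46 on replicate 1 and 0.23 on replicate 2, and 16 of them were above 0.25 on both arrays. The 45 fragments with 110 probes or more had -0.20 on replicate 1 and -0.22 on replicate 2, and none of them was above 0.25 on both arrays, while 14 were below -0.25 on both. The array was designed with more probes in some stretches than in others, and what the sparse stretches have in common was not tested.

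**Figure D4:**
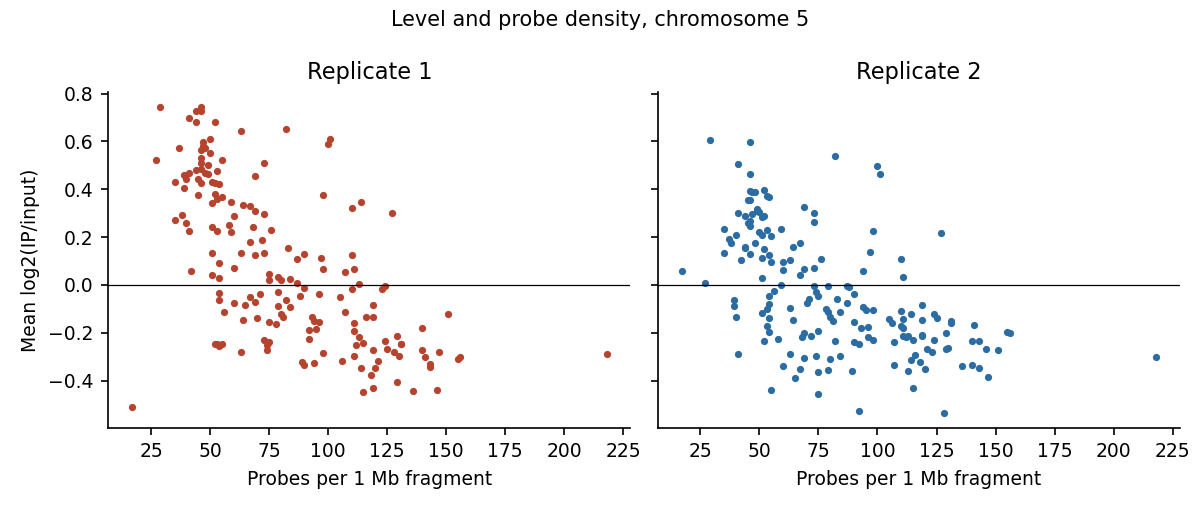
Mean log2(IP/input) of each 1 Mb fragment of chromosome 5 (vertical axis) against its number of probes (horizontal axis), on replicate 1 (left) and replicate 2 (right). In both rats the sparsely covered fragments lie mostly above 0 and those with 110 probes or more lie mostly below 0.

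The brightness of the input channel moved with the level as well. In the longest rich region the median processed input intensity was 57.8 on replicate 1 and 42.5 on replicate 2, compared with 94.8 and 75.8 in the rest of the chromosome. The IP intensity differed less, with 95.5 in the region and 93.6 in the rest on replicate 1, and 63.4 and 73.9 on replicate 2. In the longest depleted region the input was brighter than the IP in both rats, with 117.0 against 97.6 on replicate 1 and 94.3 against 85.7 on replicate 2. The higher ratio of the rich region thus went with a dimmer input in both rats, whereas the IP was slightly brighter than in the rest on replicate 1 and dimmer on replicate 2. The input is the denominator of the level by which both regions were drawn, so these differences are not independent of the level. An input brighter than the IP in the depleted region largely restates how that region was drawn. The part of input brightness in the level was not tested. The share of probes with both channels well above background in both rats was 73.8% in the region and 79.4% in the rest.

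For a description of the region by brightness, the probes of chromosome 5 were divided into 4 groups of equal size by the input intensity on one rat and their levels were read on the other. On replicate 1 the region exceeded the rest of the chromosome by 0.36, 0.69, 0.53 and 0.23, from the dimmest to the brightest group. On replicate 2 it exceeded it by 0.32, 0.43, 0.11 and 0.24. These differences come from the levels by which the region was chosen and test nothing about brightness. The level of the region itself was below 0 in the brightest group on replicate 1 and in the 2 brightest groups on replicate 2. In the rest of the chromosome the level fell with brightness as well, from 0.21 to -0.37 on replicate 1 and from 0.29 to -0.60 on replicate 2. The trend of the level on input brightness was then removed on each array. Within the unchanged boundaries of the longest rich region, the mean level was 0.41 on replicate 1 and 0.19 on replicate 2. The longest rich stretch that overlaps it, drawn anew after the removal, was 19.0 Mb long.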

How the data were processed

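Per the labels and the file headers, the authors scanned 2 two-colour arrays (Agilent Rat Genome CGH, annotated on rn4) and ran Agilent Feature Extraction 10.5.1.1, which subtracted background, removed spatial trends and normalized the dyes by lowess. The deposited intensity values are the processed signals of both channels, signals before dye normalization, and medians of spot and background. The deposited log10 ratio is red (IP) over green (input). The authors' table holds log2 ratios that equal log2 of processed red over processed green, with a largest difference of 6.2e-15. It is not centred, and its medians were 0.01 and 0.06.

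For each spot log2(IP/input) was computed from the processed signals. Controls and spots flagged as outliers were dropped, saturation was no criterion, spots of a probe were averaged, and each array was centred on its median. For 65 probes of chromosome 5 with several spots, the SD between spots was 0.27 on replicate 1 and 0.35 on replicate 2. Regions are stretches of probes on one side of 0 after smoothing over 500 kb in both directions. Their detection was tested on simulated profiles. Named regions are those of 5 Mb or longer, the 3 highest and 3 lowest fragments of 1 Mb among those with 50 probes or more, the 3 largest steps and the ends. Other intervals inside the longest region were chosen after their values were seen. The members and rules were chosen with earlier results of these data known. No test was run, since the chromosome was chosen by these levels. Levels of listed genes were planned but could not be read, since the files name no genes. Normexp (limma 3.58.1 in R 4.3.3, offset 50) used the median signals of spot and background, with the offset added to both channels. It had no dye normalization and no removal of spatial trends, so it differs from the main processing in more than background correction. Python 3.11.15, numpy 2.4.6, pandas 2.3.3 and matplotlib 3.10.9 were used. Sequences of the regions are not printed, since no genome of rn4 was used here.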

Additional observations from a re-analysis of the deposited data

How the results depend on the processing

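Over 18 alternatives, 162 values were computed for 16 results. Of these values, 3 changed sign and another 41 moved beyond the limit set for their kind of result, which for levels was the spread between the rats. The value of a single rat lies within the spread of the pair by construction, so leaving out a rat shows no stability of a level. The signals before dye normalization, levels freed of their trend with input brightness and the minimum of 20 probes were added after seeing the data. The difference between chromosome 5 and the others, 0.0037, became -0.0013 with normexp, -0.00021 with probes well above background, -0.00082 before dye normalization and 0.0087 once the trend with input brightness was removed, and ranged from 0.00048 to 0.0070 on single rats. With normexp, 0 rich and 0 depleted fragments were past 0.25, 25.04% of the chromosome was rich, the longest rich region had a level of 0.018 and a longest overlapping stretch of 4.88 Mb, and r between rats was 0.67. The SD over 1 Mb fragments of the chromosome was 0.06 with normexp in place of 0.28. Over all chromosomes the median fragment lay at -0.06 with an SD of 0.06 under normexp, compared with -0.07 and 0.27 as reported. Relative to its spread, a typical fragment was thus farther below 0 with normexp, which bears on every share or length above 0. Removal of the trend gave 16 rich fragments and r = 0.77, and signals before dye normalization gave 44 rich fragments. Over all chromosomes the rich fragments numbered 212 and 545 under these settings, respectively, in place of 355. A limit of 0.15 gave 44 rich and 41 depleted fragments, and a limit of 0.35 gave 15 and 1, as the limit itself implies. Depleted fragments numbered 10 with the uncentred log ratio of Agilent and with the authors' table, and 1 with the median over probes. The window of 1 Mb in both directions gave 13 rich and 11 depleted regions. With fragments of 200 and 500 kb, r was 0.59 and 0.76. Leaving out a replicate gave 28 to 59 rich and 33 to 34 depleted fragments. With a single rat the limit has to be passed on that rat only, so these counts cannot be below those for both rats. The longest rich region was 9.05 Mb without replicate 1 and 19.99 Mb without replicate 2. The named fragments gave 54 values, of which 16 moved beyond the spread between the rats and none changed sign. These fragments were chosen for a sign shared by the rats, so leaving out a rat could not change it. The cause of the changes between settings was not tested. Of the 14104 probes, 11140 were well above background throughout. With these probes alone the longest rich region had a level of 0.36, as with all probes, and 30 fragments were rich. The fragment from 144 to 145 Mb moved from -0.44 to -0.33. The part of dim probes in the levels was not tested. No paired analysis was possible because both arrays belong to the same group.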

Other observations

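The 120 probes on randomly placed sequence of chromosome 5, which belong to no region above, had a mean level of -0.07 on replicate 1 and -0.19 on replicate 2. Both values are below 0, and below the means of the placed probes of the chromosome on the same rat, -0.0076 and -0.0949. Their mean was -0.13 ± 0.08 (SD, n = 2). Single placed probes had an SD of 0.96 on replicate 1 and 1.24 on replicate 2. The differences are small beside these SDs and rest on 120 probes, so nothing is read from them.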
